A study of Mus musculus with 23 samples.

Results

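The 10 genes of the plasma membrane amino acid transporters described here were selected on their measured changes in these same samples with cold and with genotype: Slc7a1, Slc7a5, Slc7a11, Slc3a2, Slc1a5, Slc1a4, Slc38a1, Slc38a2, Slc38a4 and Slc7a10. Of these 10 genes, 8 had a row among the 14651 genes of the expression table, and Slc7a5 and Slc38a1 were not analysed here. Because the measured cold and genotype differences chose the genes, those differences are given for the 8 as a description, without a test. RNA was sequenced from the brown adipose tissue (BAT) of 23 male C57BL/6 mice of 8 to 12 weeks, each mouse a separate library. Control mice carried Mcu[fl/fl], a floxed gene for the pore of the mitochondrial calcium uniporter, and BAT-Mcu-KO mice carried Mcu[fl/fl];Ucp1-Cre, in which the recombinase is driven by the Ucp1 promoter of brown adipocytes. There were 6 control and 6 BAT-Mcu-KO mice at room temperature (RT), while 5 control and 6 BAT-Mcu-KO mice spent 6 h at 4°C. All 4 groups carried the floxed allele, the Cre transgene was present in the BAT-Mcu-KO groups alone, and food was by default withheld at 4°C. By the paper's methods, mice at 4°C were also kept singly in cages without bedding. Whether the RT mice of this experiment were fed, or kept in that way, is not given in the sources used here. So 4°C, food removal and housing cannot be told apart, nor can the transgene and the loss of Mcu. These were bulk tissue libraries, in which fewer cells of a type and less RNA per cell cannot be told apart.

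Amino acid transporters of the plasma membrane belong to several solute carrier families. SLC7 light chains such as LAT1, LAT2, y+LAT2, Asc-1 and xCT reach the surface only when bound to the heavy chain 4F2hc, encoded by Slc3a2, and most of them exchange one amino acid for another. The cationic transporter CAT1 (Slc7a1), the neutral exchangers ASCT1 and ASCT2 (Slc1a4 and Slc1a5) and the sodium-coupled SNAT carriers (Slc38 family) work without it. Several of these genes are known targets of ATF4, the transcription factor of the integrated stress response, which binds composite C/EBP-ATF sites. Brown fat burns fatty acids and glucose to make heat, and it also takes up amino acids in the cold.

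Levels are given as normalized read counts, that is, the reads of a gene divided by a size factor of the library. One read was worth between 0.657 and 2.02 normalized counts, and libraries held from 7129271 to 21006347 reads in genes. Mcu itself had 81.4 to 136 normalized counts in the control mice at RT and 15.2 to 42.4 in the BAT-Mcu-KO mice, and 70.8 to 132 against 24.0 to 39.9 at 4°C, without overlap at either temperature. Ucp1, the defining transcript of brown adipocytes, averaged 63858.5 normalized counts in control mice at RT and 165205 at 4°C, so the labelled tissue carried its marker. The paper also used Ucp1 as a positive control for cold. The 7 listed brown adipocyte markers had no common direction with cold in the limma fit over all genes (adjusted p under 0.05). In control mice 3 rose and 3 fell, with Cidea (log2 -0.32), Adipoq (-0.38) and Ppara (-0.58) lower at 4°C. In BAT-Mcu-KO mice 2 rose and 1 fell. Over all genes 22.3% rose and 23.7% fell in control mice, and 21.4% and 21.9% in BAT-Mcu-KO mice. Skeletal muscle transcripts varied widely between libraries, with a summed normalized count of 6 marker genes from 6.22 to 42697, and 5 libraries exceeded 20000 (control 4°C replicates 2 and 5, BAT-Mcu-KO RT replicates 3, 4 and 6).

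The promoters of 7 of the 10 genes were found in RefSeq (GRCm38.p6), each covering 250 bases before to 50 bases after a start. They were searched on both strands for 4 motifs: the C/EBP-ATF composite site TGATGNAAN, the cAMP response element TGACGTCA, the E-box CACGTG and the antioxidant response element core TGACNNNGC. The composite site was present in 3.95% of all 32851 promoters and, among the genes described here, in Slc7a11 and Slc1a4. Slc7a11 held a pair of matches, beginning 66 and 48 bases before its start, in opposite orientation. The antioxidant core (12.4% of all promoters) matched in Slc38a2 and in 1 of the 2 Slc7a1 starts, and neither the cAMP response element (1.79%) nor the E-box (7.15%) matched in any of the 10 member promoters. Shown are the 2 promoters with a composite site, then those of the 3 other genes for which every control mouse at 4°C lay above every one at RT, with matches to any of the 4 motifs in capitals.
Slc7a11, chr3:50443564-50443863, minus strand, the pair of composite sites: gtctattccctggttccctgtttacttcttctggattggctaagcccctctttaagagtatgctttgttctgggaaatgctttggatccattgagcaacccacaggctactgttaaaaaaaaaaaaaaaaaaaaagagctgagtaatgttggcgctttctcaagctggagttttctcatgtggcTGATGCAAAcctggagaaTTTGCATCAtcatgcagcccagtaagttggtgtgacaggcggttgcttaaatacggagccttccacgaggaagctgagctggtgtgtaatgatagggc
Slc1a4, chr11:20332664-20332963, minus strand, 1 composite site: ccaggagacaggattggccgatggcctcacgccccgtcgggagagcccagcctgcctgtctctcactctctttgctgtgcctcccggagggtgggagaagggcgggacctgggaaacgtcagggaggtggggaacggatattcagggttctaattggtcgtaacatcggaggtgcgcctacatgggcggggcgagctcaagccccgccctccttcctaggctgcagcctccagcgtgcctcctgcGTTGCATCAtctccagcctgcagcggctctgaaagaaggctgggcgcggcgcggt
Slc38a2, chr15:96699679-96699978, minus strand, 1 antioxidant core: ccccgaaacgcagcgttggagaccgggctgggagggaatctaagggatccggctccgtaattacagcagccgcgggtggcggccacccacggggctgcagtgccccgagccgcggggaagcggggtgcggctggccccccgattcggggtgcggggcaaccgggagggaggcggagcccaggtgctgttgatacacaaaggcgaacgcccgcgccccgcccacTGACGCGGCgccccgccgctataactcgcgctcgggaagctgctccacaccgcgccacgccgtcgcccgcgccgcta
Slc7a1, chr5:148399855-148400154, minus strand, 1 antioxidant core: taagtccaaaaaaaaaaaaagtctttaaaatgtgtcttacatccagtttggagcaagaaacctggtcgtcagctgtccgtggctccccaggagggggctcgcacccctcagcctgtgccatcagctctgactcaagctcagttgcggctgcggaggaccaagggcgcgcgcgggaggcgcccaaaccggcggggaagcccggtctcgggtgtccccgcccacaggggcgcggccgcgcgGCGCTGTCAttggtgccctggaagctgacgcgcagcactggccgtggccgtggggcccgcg
Slc3a2, chr19:8713848-8714147, minus strand, no match: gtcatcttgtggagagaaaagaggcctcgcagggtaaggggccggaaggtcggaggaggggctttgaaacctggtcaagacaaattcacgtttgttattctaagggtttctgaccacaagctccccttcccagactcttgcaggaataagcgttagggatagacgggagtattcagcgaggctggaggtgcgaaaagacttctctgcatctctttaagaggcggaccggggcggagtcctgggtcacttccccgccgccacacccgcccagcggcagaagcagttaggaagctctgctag
A match is a stretch of letters and was not tested as a binding site. The Slc3a2 promoter searched lies inside the annotated gene (8706882 to 8723369, minus strand). The bases before the outer start of Slc3a2, at 8723369, were not searched.

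Cold separated the transporters into genes with higher, lower and similar transcript levels. In control mice the normalized counts of the temperatures did not overlap for 5 of the 8 genes, with Slc3a2, Slc7a1, Slc38a2 and Slc7a11 higher and Slc1a5 lower at 4°C. For Slc7a11 this rested on a 4°C library with 2 reads, and its reads did overlap. Over all 14651 genes 25.2% did not overlap. In BAT-Mcu-KO mice 4 of the 8 did not overlap, Slc3a2, Slc7a1 and Slc38a2 higher and Slc1a5 lower, where 24.2% of all genes did not. The genes were chosen on these differences, so nothing is read from either count or from the medians that follow. The median log2 fold change of the 8 genes was 1.35 in the control and 0.78 in the BAT-Mcu-KO mice, beside -0.02 for all genes in each genotype. Dividing by the 75th percentile of each library moved the split of genes passing the limma fit over all genes (adjusted p under 0.05) in control mice from 3269 higher and 3466 lower (48.5% higher) to 2644 and 4281 (38.2% higher), and the median of all genes from -0.02 to -0.13. No cold difference of the 8 genes changed direction with it. Marker sums of other cell types also differed between the temperatures. The 5 endothelial markers summed to 2955 to 4226 normalized counts in control mice at RT and to 4744 to 7475 at 4°C, and to 3017 to 4095 and 4359 to 6239 in the BAT-Mcu-KO groups. The endothelial list had no common direction, with Pecam1 (log2 0.93 in the control and 0.84 in the BAT-Mcu-KO genotype) and Kdr (1.16 and 1.11) rising, Tie1 falling (-0.69 and -0.90), Emcn falling in control mice (-0.42) with 0.01 in the other genotype, and Cdh5 not passing (0.35 and 0.05). The 3 measured white adipocyte markers summed to 586 to 1080.3 and 279 to 487 in the control groups and to 521 to 1689 and 371 to 677 in the BAT-Mcu-KO groups, with Lep at 0 reads in some 4°C mice. The part of these cells in the transporter differences was not tested.

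**Figure D1:**
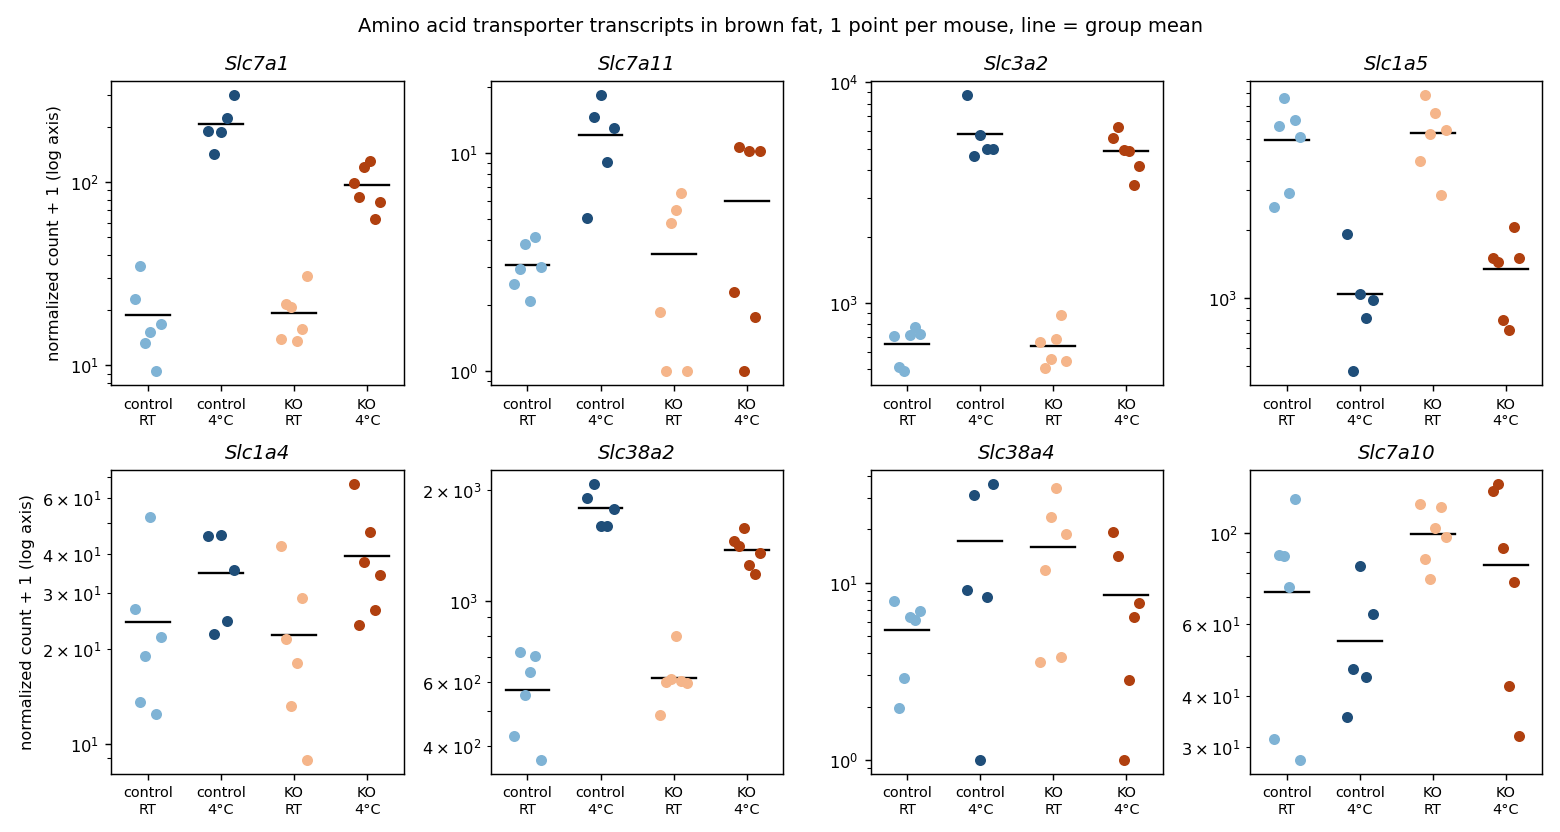
Normalized count plus 1 of each of the 8 transporters (log axis) in every mouse, by genotype and temperature (KO, BAT-Mcu-KO), with the group mean as a line. Slc3a2, Slc7a1 and Slc38a2 were higher in every 4°C mouse than in any RT mouse of the same genotype, Slc1a5 was lower in every one, and Slc7a10 overlapped throughout.

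Slc3a2, on chromosome 19 from 8706882 to 8723369 (GRCm38), encodes the heavy chain 4F2hc. In control mice at RT its normalized counts had a lowest value of 489.8, a median of 712 and a highest of 776, and at 4°C the 5 mice had 4618, 4971, 4974, 5775 and 8765. BAT-Mcu-KO mice had a lowest of 509, a median of 609 and a highest of 877 at RT, and 3429.9, 4907 and 6282 at 4°C. All 11 mice at 4°C lay above all 12 mice at RT. The mean was 8.9-fold higher at 4°C in the control and 7.63-fold in the BAT-Mcu-KO mice, log2 fold changes of 3.13 (SE 0.17) and 2.93 (SE 0.16). Between genotypes the log2 difference was -0.04 (SE 0.16) at RT and -0.24 (SE 0.17) at 4°C, with overlapping groups.

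Slc7a1, on chromosome 5 from 148327410 to 148399904, encodes CAT1, the main carrier of arginine and lysine in many cells. Its normalized counts in control mice at RT ran from 8.28 through a median of 15.0 to 33.9, and at 4°C they were 141, 187, 188, 223 and 298. For BAT-Mcu-KO mice the lowest, median and highest were 12.5, 17.3 and 29.6 at RT and 62.0, 90.2 and 129.9 at 4°C. At 4°C the 6 BAT-Mcu-KO mice were all below the 5 control mice, while at RT the genotypes overlapped. The mean was 11.7-fold higher at 4°C in the control and 5.16-fold in the BAT-Mcu-KO mice (log2 fold changes 3.56, SE 0.28, and 2.32, SE 0.27). The BAT-Mcu-KO mean at 4°C was 0.457 of the control mean (log2 -1.12, SE 0.28), and the difference of the 2 cold responses was -1.24 (SE 0.39).

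Slc38a2, on chromosome 15 from 96687392 to 96699730, encodes SNAT2, a sodium-coupled carrier of small neutral amino acids that cells adapt to amino acid supply. In control mice its lowest, median and highest normalized counts at RT were 366, 595 and 724, and the 5 values at 4°C were 1597, 1599, 1774, 1899 and 2085. BAT-Mcu-KO mice ran from 485 through 602 to 797 at RT and from 1177 through 1382 to 1580.2 at 4°C. Each 4°C mouse was above each RT mouse. Within 4°C the highest BAT-Mcu-KO mouse (1580.2) was still below the lowest control mouse (1597). The log2 fold change with cold was 1.69 (SE 0.15) in the control and 1.16 (SE 0.14) in the BAT-Mcu-KO mice, 3.15-fold and 2.23-fold in the means. At 4°C the genotypes differed by -0.38 (SE 0.15), and the 2 cold responses by -0.53 (SE 0.20). Control RT replicates 1 and 6 had the lowest Slc38a2 (426 and 366) and also the lowest Slc7a10 (30.4 and 26.8) of their group.

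Slc1a5, on chromosome 7 from 16781340 to 16798274, encodes ASCT2, a neutral amino acid exchanger best known for glutamine. Its groups were apart in the direction opposite to the other separated genes, lower in the cold. At RT its normalized counts in control mice had a lowest value of 2516, a median of 5404 and a highest of 7582, and the 5 control mice at 4°C had 475, 814, 979, 1037 and 1918. Those of BAT-Mcu-KO mice were 2849, 5375 and 7844 at RT and 724, 1468 and 2053 at 4°C. No 4°C mouse reached the lowest RT mouse of its genotype. The RT mean was 4.77 times the 4°C mean in the control and 3.99 times in the BAT-Mcu-KO mice (log2 fold changes -2.29, SE 0.33, and -2.02, SE 0.31). Genotypes overlapped at both temperatures, with log2 differences of 0.13 (SE 0.31) and 0.40 (SE 0.33).

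Its paralog Slc1a4, on chromosome 11 from 20302180 to 20332713, encodes ASCT1, which carries serine, alanine and cysteine. It had 8 to 100 reads per library. Control mice had 11.4, 19.4 and 51.1 normalized counts at RT (lowest, median, highest) and 21.2, 23.5, 34.5, 44.5 and 44.8 at 4°C. BAT-Mcu-KO mice had 7.90, 18.8 and 41.4 at RT and 22.8, 35.1 and 65.7 at 4°C, and the temperatures overlapped in both genotypes. The log2 fold change with cold was 0.63 (SE 0.38) in the control and 0.92 (SE 0.36) in the BAT-Mcu-KO mice. The BAT-Mcu-KO value was 0.69 without RT replicate 6 of that genotype, 0.85 in edgeR, 0.87 with 75th percentile scaling and 0.31 without the 5 muscle-rich libraries, an alternative chosen after seeing the data. The direction thus differed between the 2 ASCT genes, lower for Slc1a5 and higher for Slc1a4 in the means of both genotypes.

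Slc7a11, on chromosome 3 from 49892526 to 50443614, encodes xCT, which imports cystine in exchange for glutamate. Control mice had 1 to 3 reads at RT, at or under the floor of 3 reads used here as the limit of detection. At 4°C the 5 control mice had 2, 9, 11, 14 and 15 reads, or 4.05, 13.7, 8.08, 17.4 and 12.0 normalized counts. BAT-Mcu-KO mice had 0 to 6 reads at RT and 0 to 11 at 4°C, with 3 of the 6 mice above the floor at RT and 3 of the 6 at 4°C, against 0 of 6 and 4 of 5 in control mice. By normalized count every control mouse at 4°C was above every control mouse at RT, while the BAT-Mcu-KO groups overlapped. By reads the control groups overlapped too, since 4°C replicate 1 had 2 reads and RT replicates 3 and 5 had 3. The value of 4.05 came from a library in which 1 read was worth 2.02 normalized counts. Reads per size factor were 5.41 times as many at 4°C in control mice (exact 95% counting interval 2.9 to 10.8, 13 against 51 reads) and 1.99 times in BAT-Mcu-KO mice (1.07 to 3.86, 16 against 35 reads). These intervals cover counting error only, not the spread between mice. The fitted log2 fold changes were 1.88 (SE 0.64) and 0.64 (SE 0.61), and without control 4°C replicate 3 the first was 1.69. The table kept genes with 8 reads in at least 6 libraries, and all 7 libraries in which Slc7a11 had that many were at 4°C, so a gene with this pattern could enter only by being higher there.

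Slc7a10, on chromosome 7 from 35186385 to 35201114, encodes Asc-1, an exchanger of small neutral amino acids known as a surface protein of adipocytes. Control mice had 26.8, 79.9 and 120.1 normalized counts at RT (lowest, median, highest) and 34.4, 43.3, 45.5, 62.5 and 82.1 at 4°C. BAT-Mcu-KO mice ran from 76.1 through 99.4 to 117 at RT and from 30.9 through 83.1 to 132 at 4°C. All groups overlapped. The cold log2 differences were -0.27 (SE 0.37) and -0.42 (SE 0.35), and the genotype log2 differences 0.66 (SE 0.35) at RT and 0.50 (SE 0.37) at 4°C. Exons of Lrp3, on the opposite strand, overlap those of Slc7a10, and reads were counted irrespective of strand, so reads from the overlap cannot be assigned between them. The other 7 genes had no exon shared with another annotated gene.

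Slc38a4, on chromosome 15 from 96994820 to 97055956, encodes SNAT4, a carrier of neutral and cationic amino acids best known in liver. It had 0 to 44 reads per library. Control mice had 0.97, 5.31 and 6.84 normalized counts at RT (lowest, median, highest) and 0, 7.35, 8.09, 30.4 and 35.3 at 4°C, and BAT-Mcu-KO mice 2.59, 14.3 and 33.1 at RT and 0, 6.05 and 18.4 at 4°C. Its cold log2 differences pointed in opposite directions, 1.01 (SE 0.82) in the control and -0.998 (SE 0.78) in the BAT-Mcu-KO mice, with overlapping groups. The control difference was 1.89 in DESeq2, 1.88 in edgeR and 1.83 in limma without control 4°C replicate 3, the library with 0 reads. The 5 libraries rich in muscle transcripts held 5 of the 6 highest Slc38a4 values. Deviations from the group mean correlated with those of the muscle marker sum over the 23 mice (Pearson r = 0.61, Spearman rho = 0.70, and r = 0.41 without the 2 libraries farthest out in the marker sum), where both measures come from the same library. Deviations of Slc38a4 also correlated with the smooth muscle marker sum (r = 0.50, rho = 0.41) and inversely with the endothelial sum (r = -0.41, rho = -0.52). Such correlations were not particular to Slc38a4. Slc38a2 and Slc7a10 had r of -0.545 and -0.436 with the brown adipocyte sum. With the white adipocyte sum Slc38a2 and Slc1a5 had 0.422 and 0.413. Slc3a2 and Slc1a4 had -0.425 and -0.414 with the skeletal muscle sum, and Slc3a2 had -0.54 with Cd79a, the 1 measured lymphocyte marker. Without the 5 muscle-rich libraries the cold log2 differences of Slc38a4 were -0.18 and 0.09. This removal took control 4°C replicates 2 and 5 and BAT-Mcu-KO RT replicates 3, 4 and 6, and with them 5 of the 6 highest values. For the other 7 genes the same removal, chosen after seeing the data, kept the sign of every cold difference.

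**Figure D2:**
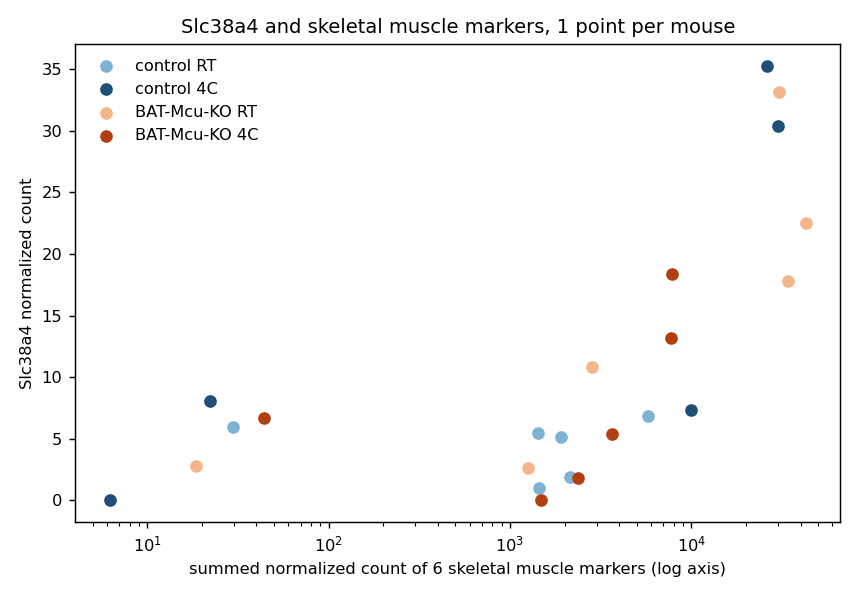
Normalized count of Slc38a4 in each of the 23 mice against the summed normalized count of 6 skeletal muscle markers (log axis), coloured by group. The 5 libraries with a sum above 20000 had 17.8 to 35.3 normalized counts of Slc38a4, and of the other 18 only 1 lay in that range.

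Slc38a1, Slc38a2 and Slc38a4 lie side by side within 485 kb of chromosome 15, with 4 annotated pseudogenes, small RNA or unconfirmed genes between them and no other protein-coding gene. The 2 measured neighbours did not share a pattern: Slc38a2 was higher at 4°C in every mouse of both genotypes, and Slc38a4 had no common direction.

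**Figure D3:**
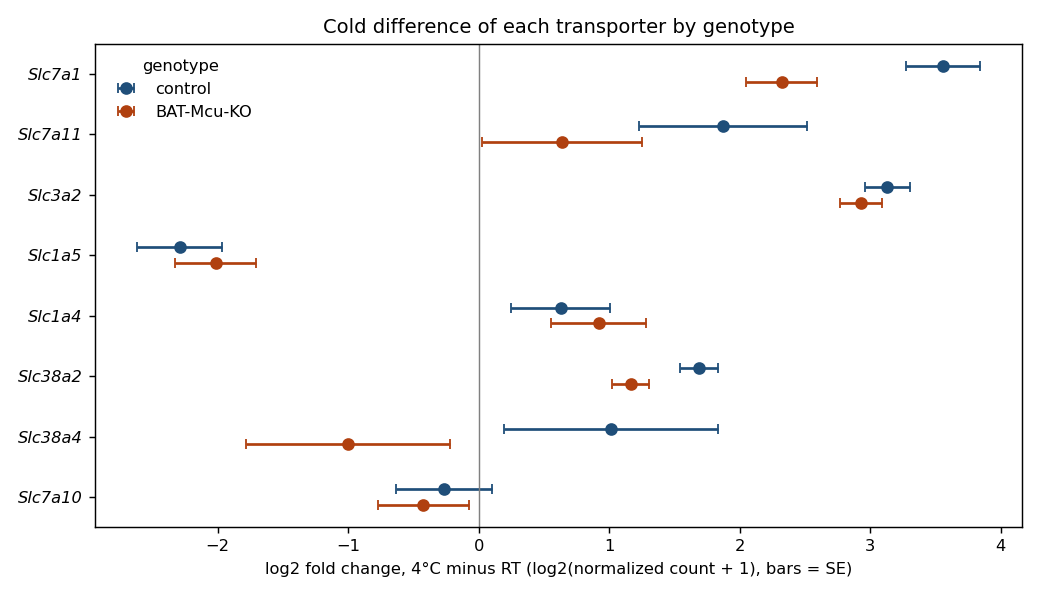
Log2 fold change of each transporter between 4°C and RT in control and BAT-Mcu-KO mice, with the standard error of the limma fit as bars. The values of both genotypes fell on the same side of 0 for 7 of the 8 genes, and those of Slc38a4 (1.01 and -0.998) on opposite sides.

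The genotypes were compared at each temperature. At RT all 8 transporters overlapped between them (0.218% of all genes did not). At 4°C the groups were apart for 2 members, Slc7a1 and Slc38a2, both lower in BAT-Mcu-KO mice (0.683% of all genes). The genes were chosen on genotype differences too, so this count and the medians that follow are a description. The median log2 difference of the 8 between genotypes was 0.12 at RT and -0.31 at 4°C, beside 0.00 and 0.01 for all genes.

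Per length of exon, the order of the 8 transporters turned over with temperature. The ranks cover these genes alone. Slc36a2, which is not among them, averaged 3274 to 3516 per kb in the 4 groups, above the mean of each of the 8. At 4°C Slc7a8 and Slc7a6 (means of 460 to 623) also stood above Slc1a5. At RT Slc1a5 was first, with 1194 normalized counts per kb in the control (SD 466, n = 6) and 1276 in the BAT-Mcu-KO mice, and Slc3a2 second, with 185 and 181. At 4°C Slc3a2 was first at 1649 and 1383 per kb, and Slc1a5 second at 250.3 and 320.0. Within each group these genes did not overlap at RT or at 4°C. Slc38a2 came next in every group (means of 64.3 to 203 per kb), overlapping Slc7a10 at RT and Slc1a5 at 4°C in both genotypes. Below it stood Slc7a10 with means of 25.4 to 46.8 per kb, overlapping the next gene in all groups but BAT-Mcu-KO RT. The order of Slc7a1, Slc1a4 and Slc38a4 varied between groups, and Slc7a11 was last throughout, with means of 0.15 to 0.79 per kb. Of the summed level per kb of the 8 genes, Slc1a5 made up 80.4% in control mice at RT and 11.6% at 4°C, and Slc3a2 12.5% and 76.4%. In BAT-Mcu-KO mice the shares were 80.5% and 16.7% for Slc1a5 and 11.4% and 72.1% for Slc3a2.

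**Figure D4:**
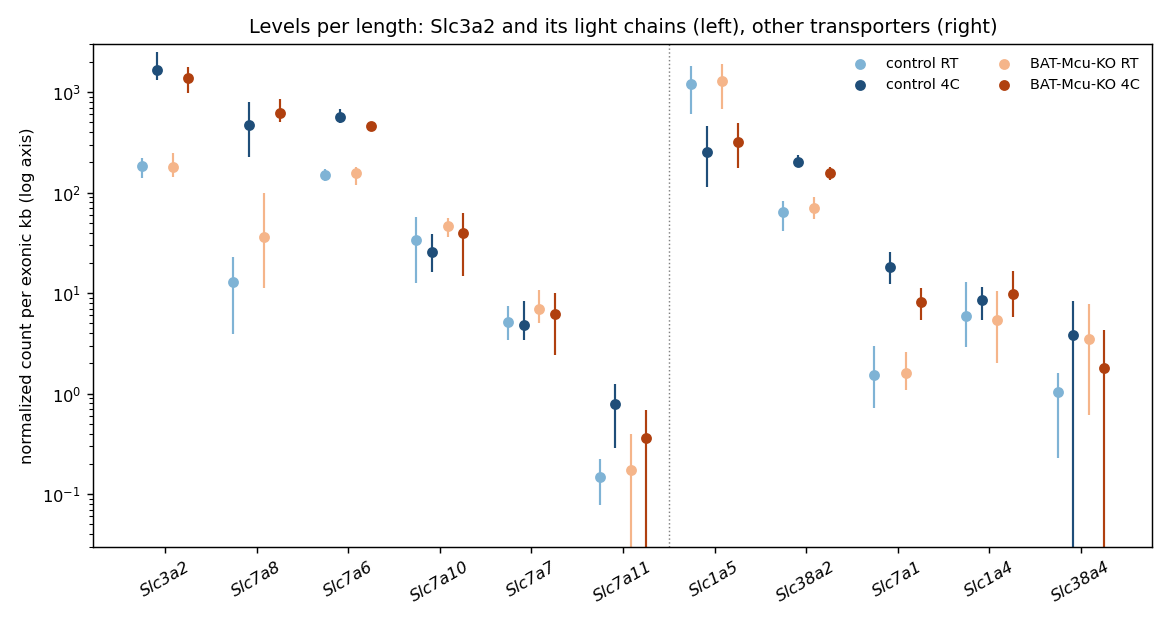
Normalized count per kb of exon (log axis) of Slc3a2 and 5 of its light chains on the left and of the 5 other transporters on the right, in the 4 groups. Points are group means and lines span the lowest to the highest mouse (lines reaching the bottom axis include 0), and Slc3a2, Slc7a8 and Slc7a6 stood higher at 4°C in both genotypes while Slc7a10 and Slc7a7 did not separate.

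The other plasma membrane amino acid transporters give the setting, since the light chains of Slc3a2 are among them. Of 36 listed genes 17 were measured, and in control mice 5 rose and 5 fell with cold, 7 not passing the test. Over all genes 46.0% passed, 22.3% higher and 23.7% lower. In BAT-Mcu-KO mice 5 rose and 4 fell, with 8 not passing, where 43.3% of all genes passed, 21.4% higher and 21.9% lower. The list's median log2 fold change was 0.21 and 0.06, beside -0.02 for all genes, and 0 of the 17 passed by genotype or interaction, the difference between the cold responses of the genotypes, in limma, DESeq2 or edgeR. In limma 0.0478% of all genes passed by genotype at RT, 0.0751% at 4°C and 0.0% in the interaction. At an unadjusted p under 0.05 there were 3 of the 17 at RT, 3 at 4°C and 2 in the interaction, beside 754, 1023 and 878 of all 14651 genes.

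Slc7a8, which encodes the light chain LAT2, had the largest cold difference of all amino acid transporters measured here. In control mice its normalized counts went from 19.8 to 114 at RT to 1134, 1874, 1956, 2789 and 4007 at 4°C. The rise was 5.24 on the log2 scale (SE 0.43, limma adjusted p = 3.22e-10). BAT-Mcu-KO mice showed one of 4.45 (SE 0.41, adjusted p = 2.45e-09), with ranges of 56.7 to 493 at RT and 2534 to 4214 at 4°C. Slc7a6, the light chain y+LAT2, rose from 598 to 785 at RT to 2235 to 3098 at 4°C in control mice (log2 1.89, SE 0.11, adjusted p = 9.61e-13). In the BAT-Mcu-KO genotype the rise was 1.56 (SE 0.10, adjusted p = 1.09e-11). Neither group pair overlapped for these genes. Slc7a7, the light chain y+LAT1 of epithelia and macrophages, stayed between means of 16.1 and 22.8 and did not pass. Of 6 known light chains, 5 had a row, and per kb Slc7a8 and Slc7a6 were the most abundant at 4°C (470 and 560 in the control, 623 and 460 in the BAT-Mcu-KO mice), against 1649 and 1383 for Slc3a2.

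Slc43a2 (LAT4), which exports branched-chain and aromatic amino acids without 4F2hc, rose by 1.66 (SE 0.17, adjusted p = 2.32e-08) in the control and by 1.90 (SE 0.17, adjusted p = 1.19e-09) in the BAT-Mcu-KO genotype. Its relative Slc43a1 (LAT3) fell by 1.41 (SE 0.27, adjusted p = 0.000134) and by 1.45 (SE 0.26, adjusted p = 5.85e-05). Slc1a3, a glutamate and aspartate carrier of the same family as the ASCT genes, fell by 1.32 (SE 0.13) and 1.27 (SE 0.12), from means of 1829.8 and 1960.3 at RT to 727 and 809 at 4°C. Less abundant genes passed in 1 genotype: Slc6a20b (1.33, adjusted p = 0.0205) and Slc38a11 (-1.15, adjusted p = 0.0233) in control mice, and Slc1a1 (1.22, adjusted p = 0.0205) and Slc7a2 (-1.32, adjusted p = 0.0055) in BAT-Mcu-KO mice. Except for Slc7a2 these single-genotype calls were lost when certain single libraries were left out: Slc6a20b without control RT replicate 3 (1.12, adjusted p = 0.0557) or 4°C replicate 1 (1.04, adjusted p = 0.0766), Slc38a11 without control RT replicate 5 or 4°C replicate 3 or 5 (adjusted p up to 0.094), and Slc1a1 without replicate 5 of either BAT-Mcu-KO group (adjusted p up to 0.0603). Slc38a11 also failed in DESeq2, in edgeR, with quantile normalization and with only the groups compared (adjusted p from 0.0612 to 0.0755). Slc1a1 passed in control mice too in DESeq2 (adjusted p = 0.0284), in edgeR (0.0406) and in limma without control 4°C replicate 1 (0.0195), and Slc6a20b in BAT-Mcu-KO mice without RT replicate 1 (0.0447). The interaction terms of these genes did not pass, so a difference between genotypes was not shown. Slc36a2, a proton-coupled carrier that marks brown fat, had 9402 to 13457 normalized counts over all 23 mice and no cold difference past the threshold (-0.01 and 0.11).

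**Figure D5:**
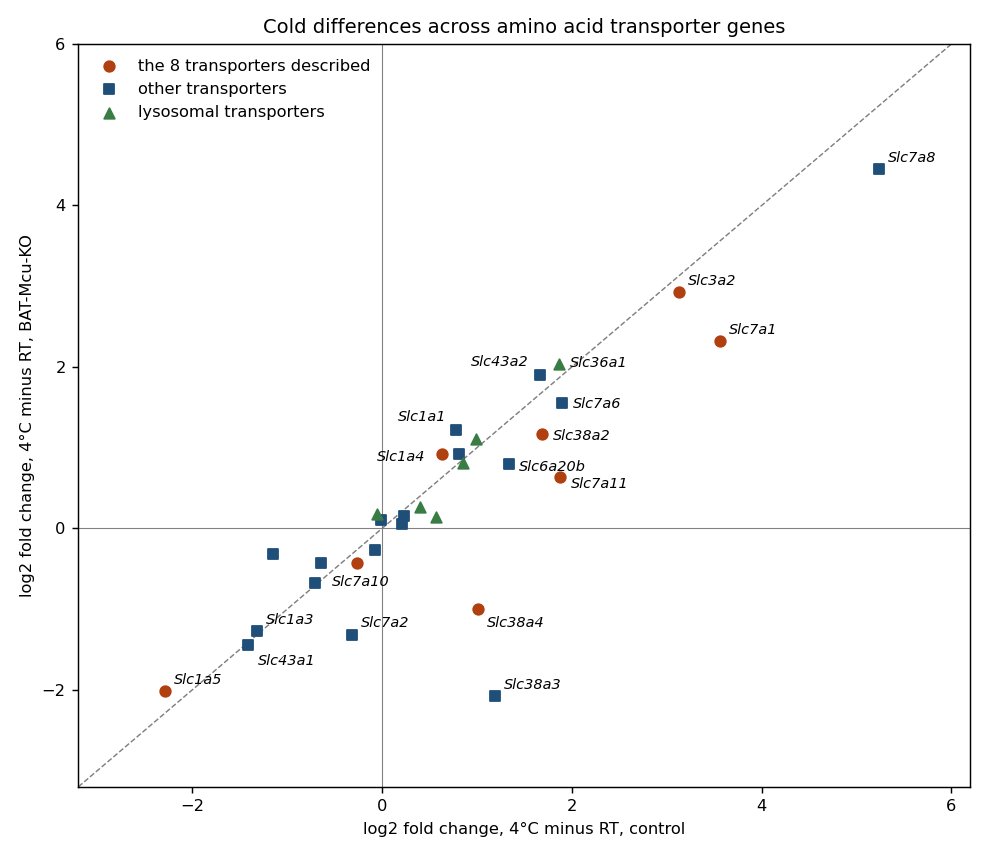
Log2 fold change between 4°C and RT in control (horizontal) and BAT-Mcu-KO mice (vertical) for the 8 transporters described, 17 other plasma membrane transporters and 6 lysosomal ones, with a dashed line of equal change. Slc7a8 lies at 5.24 and 4.45, Slc1a5 at -2.29 and -2.02, and Slc38a4 and Slc38a3 are the points farthest off the line. Slc7a1 (3.56 and 2.32), Slc7a11 (1.88 and 0.64) and Slc7a2 (-0.32 and -1.32) also lie off it.

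Slc38a3 (SNAT3) behaved like Slc38a4 and followed the muscle markers more closely (Pearson r = 0.88, Spearman rho = 0.94 over deviations in 23 mice). It had 0 to 84 reads per library. Mean normalized counts were 3.14 at RT and 15.4 at 4°C in control mice, and 33.2 and 3.04 in BAT-Mcu-KO mice. Above the floor of 3 reads were 2 of 6 and 3 of 5 control mice, and 4 of 6 and 3 of 6 BAT-Mcu-KO mice. Its cold differences were 1.19 (SE 1.08) in the control and -2.08 (SE 1.03) in the BAT-Mcu-KO mice, neither passing in limma, while DESeq2 and edgeR called the second (adjusted p = 0.0132 and 0.00633), as did limma without BAT-Mcu-KO RT replicate 5 (-2.63, adjusted p = 0.0428) or with a pseudocount of 10 (adjusted p = 0.0392).

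Transporters of the lysosome, which pass amino acids back to the cytosol, were also listed. Of 7 genes 6 were measured, and 5 rose in the control and 3 in the BAT-Mcu-KO mice, with none falling, where 22.3% and 21.4% of all genes passed higher. Slc36a1 (PAT1) rose by 1.87 (SE 0.20, adjusted p = 2.4e-08) and 2.04 (SE 0.19, adjusted p = 2.49e-09), and the cystine exporter Ctns by 0.99 (SE 0.13, adjusted p = 5.85e-07) and 1.11 (SE 0.12, adjusted p = 5.08e-08). The lysosomal list had median log2 fold changes of 0.71 and 0.54. The calls of Slc36a4 and Slc38a7 in control mice (0.57 and 0.40) were lost without single libraries. For Slc36a4 these were control RT replicates 1 and 3 and 4°C replicates 1 and 3 (adjusted p up to 0.0577), and for Slc38a7 control RT replicates 2, 4, 5 and 6 and 4°C replicates 2 to 5 (adjusted p up to 0.125). Both calls were also lost with 75th percentile scaling (adjusted p = 0.0589 and 0.129), and that of Slc38a7 with only the groups compared (0.0812).

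Regulators of the amino acid response were measured in the same libraries. Of 13 listed, 9 rose in control mice, where 22.3% of all genes passed higher. In BAT-Mcu-KO mice 8 rose and 1 fell, where 21.4% of all genes passed higher and 21.9% lower. The list was chosen with earlier results of these data known, so these counts are a description. Atf4 rose from a mean of 609.9 (SD 59.2, n = 6) to 2992 (SD 137, n = 5) normalized counts in control mice (log2 2.30, SE 0.11, adjusted p = 3.89e-14). For BAT-Mcu-KO the means were 515 and 1922 (1.88, SE 0.10, adjusted p = 5.89e-13). At 4°C it was lower in BAT-Mcu-KO mice by 0.66 (SE 0.11, adjusted p = 0.0151), each of the 6 below each control mouse. In a fit restricted to those 2 groups the same difference did not pass (adjusted p = 0.243). Atf3 and Trib3 were apart in the same way without passing (limma adjusted p = 0.57 and 0.533), and the other listed regulators overlapped. So were Slc7a1 and Slc38a2, which were chosen on such differences, and a link between them and Atf4 was not tested. Atf3 rose by 5.49 (SE 0.37) and 3.78 (SE 0.35), Trib3 by 1.54 (SE 0.20) and 0.78 (SE 0.19), and Cebpb by 0.95 (SE 0.31, adjusted p = 0.0133, lost without control 4°C replicate 4 at 0.0633) and 0.92 (SE 0.29). Ddit3, which encodes the stress factor CHOP, did not pass (0.15 and -0.23). The oxidative stress factor Nfe2l2 rose by 0.55 in the BAT-Mcu-KO genotype (SE 0.10, adjusted p = 9.56e-05) and had 0.22 (SE 0.11) in control mice, which passed when control 4°C replicate 4 was left out (0.29, adjusted p = 0.0381). Myc, a growth factor-responsive regulator of Slc1a5 and Slc7a5 in proliferating cells, had -1.26 in control mice (SE 0.54, adjusted p = 0.0572) and fell by 1.34 in the BAT-Mcu-KO genotype (SE 0.51, adjusted p = 0.0366). That call was lost without RT replicate 2, 3 or 4 or 4°C replicate 2, 3, 4 or 5 of the BAT-Mcu-KO mice (adjusted p up to 0.0972), and with quantile normalization, without the trend, in DESeq2 and in edgeR (0.0517 to 0.082). The control value passed without control RT replicate 5, control 4°C replicate 1 or 5, or BAT-Mcu-KO 4°C replicate 1 (adjusted p down to 0.0059), and with 75th percentile scaling (0.0371).

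Among mice of the same group, the gene most like Slc3a2 among all 14650 others was Slc7a8, its own light chain (Pearson r of deviations from the group means 0.79, Spearman rho 0.84 over 23 mice), followed by Eva1a (0.78 and 0.78). Without the 2 libraries most extreme in Slc7a8 the r was 0.74. For Slc7a1 the closest genes were Ptger2 (0.82 and 0.77) and Slc16a7 (0.75 and 0.73), and for Slc38a2 Adpgk (0.82 and 0.70) and Eaf1 (0.81 and 0.72). Slc1a5 was closest to Smg9 (0.78 and 0.79) and 1810019D21Rik (0.77 and 0.74), and Slc1a4 to Cd247 (0.78 and 0.85) and Lat2 (0.77 and 0.79), an immune adaptor gene and not the transporter LAT2. Slc7a10 followed Ext2 (0.85 and 0.88) and Tmem183a (0.84 and 0.79), Slc38a4 followed Tcea3 (0.84 and 0.86) and Itm2a (0.81 and 0.87), and Slc7a11 had Dkk3 (0.72 and 0.70) and Adh6b (0.71 and 0.68). Without the 2 libraries most extreme in the partner, r of the named pairs ran from 0.57 (Slc7a11 with Adh6b) to 0.83 (Slc1a4 with Cd247). It was 0.59 for Slc7a11 with Dkk3 and 0.65 for Slc38a2 with Eaf1. Some partners had low mean normalized counts: Dkk3 6.45, 1810019D21Rik 12.0, Lat2 13.3, Cd247 13.9 and Adh6b 18.2. The named pairs have the highest of 14650 correlations each and describe these libraries, whose points share depth and tissue composition. Between the 8 members the same correlation ran from -0.27 to 0.51 over 28 pairs, and exceeded 0.4 for Slc38a2 with Slc7a10 and for Slc3a2 with Slc1a4 alone.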

How the data were processed

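BAT was taken from 23 mice and libraries were made by the Smart-seq2 protocol, which amplifies cDNA by PCR. Per the study's methods and the submitters' processing notes, the authors aligned paired reads to mm10 (GENCODE M7) with STAR 2.4.0j, counted unique exonic reads with HTSeq irrespective of strand, kept genes reaching 8 reads in 6 or more samples, and divided them by DESeq2 size factors. The deposited values are this normalized signal. A second deposited table holds the authors' own fold changes and p-values and was not used. Whole reads were recovered from the smallest step of each column (100% of values within 0.1 of a whole read) for count tests, depth and floors. Expression was tested on log2(normalized count + 1) with limma 3.58.1 (R 4.3.3, trended variance, Benjamini-Hochberg adjustment over 14651 genes, threshold 0.05), with 1 mean per group over all 23 samples. Fold changes of low genes are understated on this scale. On counts simulated for cold in control over 14651 genes, the limma fit was tested before use. Alternatives were another pseudocount (0.5 or 10), a filter at a mean of 50, quantile and 75th percentile scaling, no trend, only the groups compared, the replicate number as a block, edgeR 4.0.16, DESeq2 1.42.0 and leaving out each sample. Members and gene lists were chosen with earlier results of these data known. Beside the members, the text names transporters called by cold with an absolute log2 fold change of at least 1 or by genotype, 7 regulators, and per member the 2 genes closest in deviations from group means. Slc38a3 and genes whose calls were unstable were added after their values were seen. Positions and exon lengths are from GENCODE M21 (GRCm38), in which 94.1% of the table's symbols were found, and promoters from RefSeq (GRCm38.p6). The floor was 3 reads, and read ratios carry exact 95% intervals for counting error only.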

Additional observations from a re-analysis of the deposited data

How the results depend on the processing

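The cold differences of the 8 genes kept their direction under all alternatives except those of Slc38a4, and 965 of 969 values of the 8 genes under all alternatives moved by less than the spread between mice. The exceptions were cold in control with a pseudocount of 10 (Slc7a1 2.99, Slc7a11 0.77) and the interactions of Slc1a4 (-0.48) and Slc38a4 (0.28) without the 5 muscle-rich libraries, an alternative chosen after seeing the data. Both interactions changed sign there, from 0.29 and -2.01 in the reported fit. The sign was opposite to that fit for 18 of 181 genotype values at RT, 3 of 173 at 4°C and 10 of 261 interaction values. Cold counts stayed within 1.5 times the reported ones. Genotype at RT called 3 genes with only the groups compared and 20 with DESeq2 (7 in the reported fit). Genotype at 4°C called 7 without the trend, 2 with only the groups compared, 17 with the replicate block, 23 with DESeq2 and 6 with edgeR (11 reported), and from 3 (without control 4°C replicate 2) to 16 when 1 library was left out. With DESeq2 28 genes passed in the interaction. The reported fit called 0 there, and from 0 to 1 when 1 library was left out (1 without control 4°C replicate 1). The 4°C genotype counts were 7 without control 4°C replicate 5 and 6 without BAT-Mcu-KO 4°C replicate 4. Counts of other transporters called by cold ran from 8 to 10 in both genotypes when 1 library was left out. Deviations of same-numbered mice correlated from 0.00 to 0.43 between the genotypes at 4°C, over 0.1 in 4 of 5 pairs, and 6 of these 10 mice correlated best with their own number. In the other 3 comparisons r ran from -0.364 to 0.127, and 1 of 10, 0 of 12 and 0 of 12 mice did so. Since not every pair exceeded 0.1 and the labels name no shared litter or day, the replicate numbers were not taken as pairs. The replicate block called 6468 and 6127 genes by cold and 9 by genotype at RT, and lost the calls of Slc38a7 in control and of Myc in BAT-Mcu-KO mice. The cause of these differences was not tested. Slc7a11 and Slc38a4 were limited by depth, with 0 to 44 reads per library, as was Slc38a3, with 0 to 84.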
